A study of Caenorhabditis elegans with 46 samples.

Results

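DPL-1 binding was compared between late embryos that lack LIN-35 and wild-type late embryos of Caenorhabditis elegans. Of the 46 samples of the series, 6 are DPL-1 ChIP-seq libraries, 3 from lin-35 null embryos and 3 from wild-type embryos. Their replicates were deposited as 1 peak list per genotype, with 995 DPL-1 peaks in lin-35 null and 1771 in wild type, out of 21925 peaks in the 13 lists of the series. The lin-35 null strain carries n745, an allele with an early stop codon that leaves no LIN-35 protein, and was cultured for 96 h before embryos were taken. The wild-type strain was N2 (Bristol), cultured for 72 h. Embryos of both strains were collected from gravid worms and aged for up to 3.5 h. Whole embryos were used, so fewer bound cells and less binding per cell cannot be told apart.

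DPL-1 is the DP partner of the E2F protein EFL-1, and the heterodimer (E2F-DP) binds DNA directly. In C. elegans, E2F-DP, the pocket protein LIN-35 and the MuvB core (LIN-9, LIN-37, LIN-52, LIN-53 and LIN-54) form the DRM complex, the counterpart of mammalian DREAM, which represses cell cycle and other genes. The pocket protein sits between E2F-DP and MuvB, and LIN-54 gives MuvB a DNA contact of its own. The comparison asks where DPL-1 remained on chromatin, and at what rank, when the pocket protein was gone.

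Each peak carries a signal value from the peak caller that has no shared scale between lists. Ranks were therefore used, and every peak was placed by its percentile in the list it came from (100 is the highest signal value). A wild-type peak was called kept when a lin-35 null DPL-1 peak overlapped it by at least 1 bp and lost when none did, and a lin-35 null peak was called new when no wild-type DPL-1 peak overlapped it. Read counts and values of single libraries are not part of these lists, so depth and replicate error are unknown and no test over samples was possible. A lost peak is one without a call in the lin-35 null list, and binding too weak to be called was not measured. DRM sites are the study's positions where wild-type peaks of DPL-1, EFL-1, LIN-35 and most MuvB subunits overlap. The study set a lin-35 null replicate apart for elevated signal at DRM sites, the list used here includes all lin-35 null replicates, and no value without that replicate could be given. The 95% Wilson intervals given beside shares cover the counting of peaks only. The signal values ran from 321 to 20350 in lin-35 null and from 218 to 63977 in wild type, and every peak was 550 bp wide in lin-35 null and 390 bp wide in wild type. All 3 lin-35 null libraries and 1 wild-type library were made with a newer protocol, and the other 2 wild-type libraries with an older one that cut fragments from a gel. Genotype, culture time and most of the difference in protocol go together, so their parts in what follows cannot be told apart.

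DPL-1 remained at 887 of the 1771 wild-type peaks, or 50.1% (interval 47.8% to 52.4%), and 884 peaks were lost. Only 81 of the 995 lin-35 null peaks were new, or 8.14% (interval 6.60% to 10.0%). The lin-35 null list was thus mostly a subset of the wild-type list, as 914 of its peaks (91.9%) fell on a wild-type peak. Peaks of a list can overlap each other, as 101 did in lin-35 null and 29 in wild type. Some new peaks therefore share a place, such as chrI:6898142-6898691 and chrI:6898344-6898893, and the counts are of calls. The kept and new counts also move with list length. With the wild-type list shortened to its 995 highest peaks, 70.4% were kept and 269 lin-35 null peaks had no match, and without the lowest 25% of the lin-35 null list, 39.6% were kept and 32 peaks were new. The summits of kept pairs lay a median of 9 bp apart, and 830 of the 887 pairs had summits within 50 bp of each other. In 25 pairs they lay more than 200 bp apart. Pairing was one-to-one for 817 kept peaks. The other pairs involved neighbouring peaks, and the highest lin-35 null peak was then used.

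**Figure D1:**
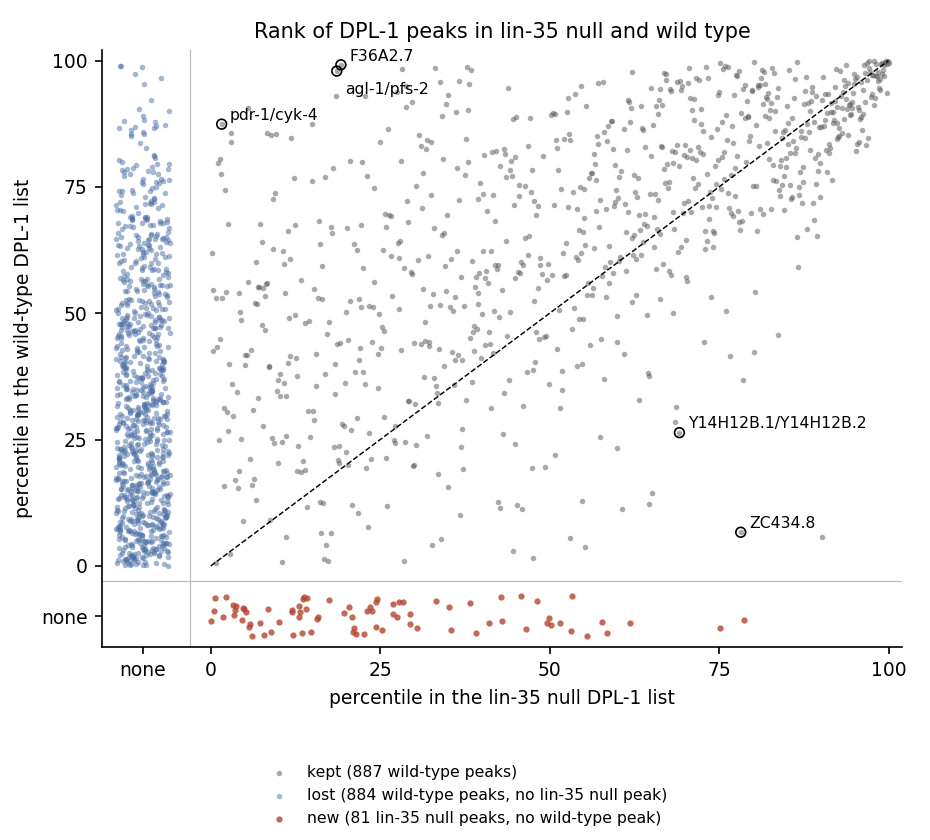
Each point is a DPL-1 peak. The horizontal axis is its percentile in the lin-35 null list and the vertical axis its percentile in the wild-type list, with the strip at the left for the 884 lost peaks, the strip at the bottom for the 81 new peaks and the dashed line for equal percentiles. Lost peaks gather at low wild-type percentiles (median 30.6), and the highest new peak stands at the 78.7 percentile of the lin-35 null list.

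Kept peaks ranked higher in wild type than lost ones. The kept peaks had a median wild-type percentile of 70.9 (quartiles 48.8 and 86.5), and the lost peaks a median of 30.6 (quartiles 14.6 and 50.9). The ranges overlapped almost fully, since the lowest kept peak stood at 0.508 and the highest lost peak at 99.0. When every kept peak was set against every lost peak, the kept peak had the higher wild-type percentile in 81.4% of the pairings. With the wild-type list cut into 4 rank groups of nearly equal size, the kept share was 17.2% in the lowest group (76 of 442), 34.8% in the second (154 of 443), 60.0% in the third (266 of 443) and 88.3% in the highest (391 of 443). At the top of the list the increase levelled off, with 190 of the 200 highest wild-type peaks kept (95%) and 46 of the 50 highest (92.0%).

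**Figure D2:**
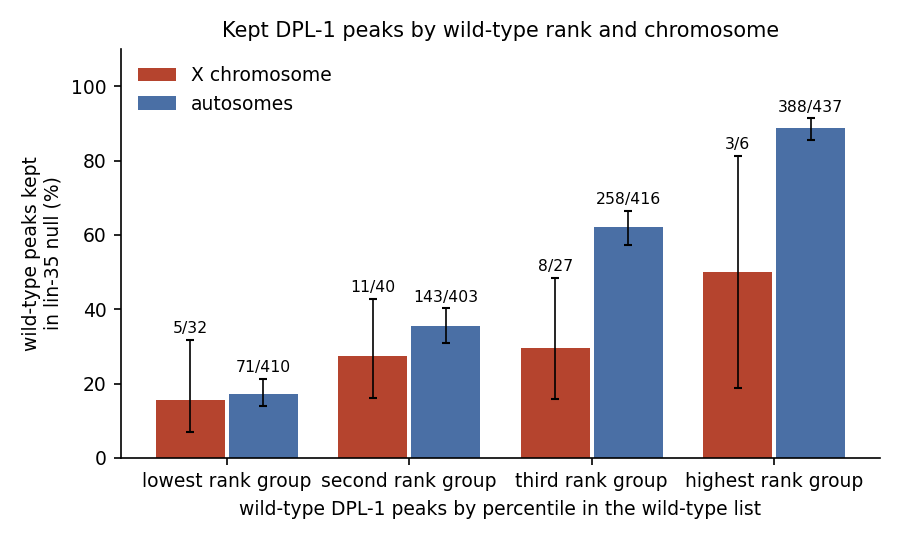
Bars give the percentage of wild-type DPL-1 peaks kept in lin-35 null, by rank group of the wild-type percentile, for the X chromosome and the autosomes. Error bars are 95% Wilson intervals, and the numbers are kept peaks over wild-type peaks. On the autosomes the share was 17.3% in the lowest group and 88.8% in the highest, and in the third 29.6% of X peaks against 62.0% of autosomal peaks were kept.

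Of the 10 kept peaks that ranked highest in lin-35 null, 9 lay at promoters, as did 698 of all 887 kept peaks. The promoter of sti-1, which encodes a co-chaperone of Hsp90, held the highest lin-35 null peak, at percentile 100 in lin-35 null and 99.4 in wild type (chrV:773232-773621, ce10). The promoter shared by K01G5.10 and K01G5.9 came next, at 99.9 in lin-35 null and 100 in wild type. It was followed by the promoter shared by W02D9.2 and the DNA primase subunit gene pri-2, at 99.8 in lin-35 null and 93.6 in wild type. Next in order were cdc-48.1, which encodes the p97 ATPase (99.7 in lin-35 null, 99.3 in wild type), and the alpha-tubulin gene tba-2 (99.6 in lin-35 null, 99.8 in wild type). The other peaks of the first 10 belonged to Y53F4B.11 and Y53F4B.9, to T23F6.3 and rbd-1, to an intron of F56D5.6, to mes-2, which encodes the histone methyltransferase of the worm Polycomb complex, and to F48A11.4. All 10 ranked at 93.6 or higher in wild type and had peaks of all 5 other mapped subunits (EFL-1 and 4 of MuvB) in lin-35 null, and 9 of the 10 lay in HOT regions, which many unrelated factors bind. Over all 887 kept peaks, 78.5% had EFL-1 and 77.6% all 4 MuvB subunits in lin-35 null, and 323 lay at DRM sites in HOT regions. In the highest rank group of the wild-type list, 188 of 443 peaks lay at such sites.

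The lost peaks that ranked highest in wild type were led by a pair of promoters on chromosome V. The peak at C13B7.6 (chrV:2421501-2421890) stood at percentile 99.0 with a wild-type signal value of 14893, and that at Y45G12C.16 (chrV:2529780-2530169) at 98.9 with a signal value of 14568. At both, all 6 other mapped subunits had a wild-type peak and none of the 5 subunits mapped in lin-35 null had one there. RefSeq (WBcel235) gives both genes a transcript length of 1029 bases, and the gene table used here pairs both gene IDs with the name C13B7.6. Whether reads of these genes can be told apart was not tested.

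At the other lost peaks of the first 10, DPL-1 had no lin-35 null peak while MuvB peaks were present. The promoter of lem-3, a nuclease gene of the LEM-domain family, stood at 98.8 in wild type, and the promoter shared by Y32H12A.8 and W03A5.2 at 97.2. Both had lin-35 null peaks of all 4 mapped MuvB subunits, as did the intergenic site assigned to the casein kinase 1 gene kin-19 (95.4). Next came stc-1 (96.6), tag-93 (now ppm-1.A, 92.2), rcq-5, a RecQ helicase gene (90.0), and an intron of Y65A5A.2 (89.1), each with lin-35 null peaks of LIN-9, LIN-52 and LIN-54. The promoter of rpb-6, which encodes an RNA polymerase subunit (90.5), had LIN-54 alone, at 6.12 in lin-35 null. Over all 884 lost peaks, at least 3 MuvB subunits were found in lin-35 null at 21.3% and none at 62.6%. None of the 10 had a lin-35 null EFL-1 peak, and all 10 had a wild-type one. Over all lost peaks, the shares were 1.02% for a lin-35 null EFL-1 peak and 79.0% for a wild-type one. Where MuvB peaks remained at these 10, their rank was lower as well. LIN-9 stood at a median percentile of 45.7 in lin-35 null (7 peaks) and 97.1 in wild type (10 peaks), and LIN-54 at 37.6 in lin-35 null (8 peaks) and 97.5 in wild type (10 peaks).

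Among kept peaks, rank was partly conserved. The Spearman correlation of the lin-35 null and wild-type percentiles was 0.649 over 887 kept peaks, which is a description only, since peaks of 1 list share their libraries. A higher percentile in lin-35 null was found for 278 of the 887 pairs, or 31.3%. The median difference, lin-35 null minus wild type, was -9.75 points (quartiles -26.4 and 2.46). This value depends on the company of each list, because lost peaks lie under the kept ones in wild type. With percentiles taken among the paired peaks alone, the median difference was 2.14 points and 495 of 887 pairs were higher in lin-35 null. Single peaks moved much further than this shift. On the scale of the paired peaks, 114 pairs were higher by more than 25 points in lin-35 null and 128 were lower by more than 25 points.

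The 10 peaks with the largest fall in percentile were kept only at the low end of the lin-35 null list. The promoter shared by pdr-1, the worm Parkin gene, and cyk-4, a cytokinesis gene of the centralspindlin complex, stood at percentile 1.61 in lin-35 null and 87.4 in wild type (chrIII:13771061-13771450). F56D2.2 stood at 5.43 in lin-35 null and 90.6 in wild type. F36A2.7, near the top of the wild-type list, stood at 19.2 in lin-35 null and 99.2 in wild type. The promoter shared by agl-1 and the polyadenylation factor gene pfs-2 stood at 18.6 in lin-35 null and 97.9 in wild type. The rest were B0491.6 and B0491.1, mtm-9, lsy-2, sel-9, spn-4 and spe-39, and rsp-5 and snr-3, with differences of -82.8 to -76.4 points. These 10 were chosen for this change, so its size is a description. Of these 10, 3 had a lin-35 null EFL-1 peak, as with LIN-37, while 10 had a LIN-9 peak, 9 a LIN-52 peak and 8 a LIN-54 peak. Over all 887 kept peaks, the shares were 78.5% for EFL-1, 78.0% for LIN-37, 94.5% for LIN-9, 92.1% for LIN-52 and 88.8% for LIN-54. The choice of falls placed all 10 at 19.2 or lower in lin-35 null. Kept peaks without EFL-1 were low there in general (median 16.8, 191 peaks). The counts were not matched for lin-35 null rank. Every other subunit that had a peak in both genotypes also ranked lower in lin-35 null at these 10, with a median difference of -52.1 points for LIN-9 and -63.3 points for LIN-54. At agl-1 and pfs-2, LIN-9 and LIN-52 moved less than at the other 9, with LIN-9 at 77.3 in lin-35 null and 98.6 in wild type, and EFL-1 had no lin-35 null peak.

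The 10 peaks with the largest rise were chosen for this change, so they had to start low in the wild-type list. Its size is a description. Their wild-type signal values were 224 to 354, in a list that starts at 218. The largest lay on chromosome III outside the DRM sites (chrIII:7643824-7644213), at percentile 90.2 in lin-35 null and 5.70 in wild type, with signal values of 3844 in lin-35 null and 243 in wild type. EFL-1, LIN-37 and LIN-52 had a peak there in lin-35 null and none in wild type, LIN-9 stood at 92.4 in lin-35 null and 33.1 in wild type, and LIN-54 at 89.5 in lin-35 null and 32.7 in wild type. ZC434.8, Y75B8A.23, Y66D12A.19, C34D4.1 (now maph-9) and the promoter shared by Y14H12B.1 and Y14H12B.2 were higher in lin-35 null by 42.8 to 71.5 points. Of these, Y75B8A.23 is a termination site at 64.7 in lin-35 null and 12.3 in wild type, and Y66D12A.19 an intron at 65.1 in lin-35 null and 14.5 in wild type. A further peak outside the DRM sites (chrIV:2668183-2668572) stood at 53.1 in lin-35 null and 5.59 in wild type. The remaining 3 pairs joined summits 202 to 312 bp apart. With summits required to lie within 200 bp, the peaks at rpl-32 and at chrIV:15473883-15474272 were no longer paired, and the difference at fbxb-78 was 13.5 points in place of 41.8. At all 10, EFL-1 and at least 3 MuvB subunits were found in lin-35 null, against 73.1% of all kept peaks. The choice of rises also placed all 10 at 47.5 (rpl-32) or higher in lin-35 null. Kept peaks without a lin-35 null EFL-1 peak were low there, with an upper quartile of 25.7 (191 peaks). The comparison with all kept peaks was thus not matched for lin-35 null rank, and the difference was not tested. LIN-9 and LIN-54 each ranked higher in lin-35 null at 9 of the 10. How often the other subunits ranked higher over all kept peaks was not counted. EFL-1 was higher in lin-35 null at 7 of 9 shared peaks, LIN-52 at 6 of 9 and LIN-37 at 4 of 8 (median difference -5.98 points).

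Losses were most frequent on the X chromosome. Of the 105 wild-type DPL-1 peaks on X, 27 were kept, or 25.7% (interval 18.3% to 34.8%), against 51.6% of the 1666 autosomal peaks (interval 49.2% to 54.01%). The 5 autosomes lay close together, from 49.7% on chromosome I and 49.8% on chromosome IV to 52.3% on chromosome V and 55.7% on chromosome III, with overlapping intervals. X peaks ranked lower in wild type, with a median percentile of 39.0 against 51.3 on the autosomes. They also lay at DRM sites less often, with 53 of 105 against 1427 of the 1771 peaks on all chromosomes. At DRM sites, 16 of the 53 X peaks were kept, against 809 of 1427 (56.7%) on all chromosomes. Applying the autosomal kept shares of each rank group to the X peaks would keep 41.8 of 105 (39.8%), against the 27 found. That value is matched for rank only and not for place at a DRM site. The gap lay in the upper part of the list, since 5 of 32 X peaks (15.6%) and 71 of 410 autosomal peaks (17.3%) were kept in the lowest group, while 8 of 27 (29.6%) and 258 of 416 (62.0%) were kept in the third.

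Only 6 X peaks stood in the highest rank group of the wild-type list, and they were looked at after their values were known. F16B12.6 (87.1 in lin-35 null, 84.9 in wild type) and Y73B3A.4 (84.8 in lin-35 null, 80.7 in wild type) kept their rank. The zinc finger gene lsy-2 was kept at 1.31 in lin-35 null, against 80.6 in wild type. The peaks of tag-52 (79.4 in wild type), C04A11.2 (77.9) and the autophagy gene atg-2 (76.3) were lost. In lin-35 null, 8 of the 36 X peaks were new (22.2%), against 73 of 959 autosomal peaks (7.61%).

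**Figure D3:**
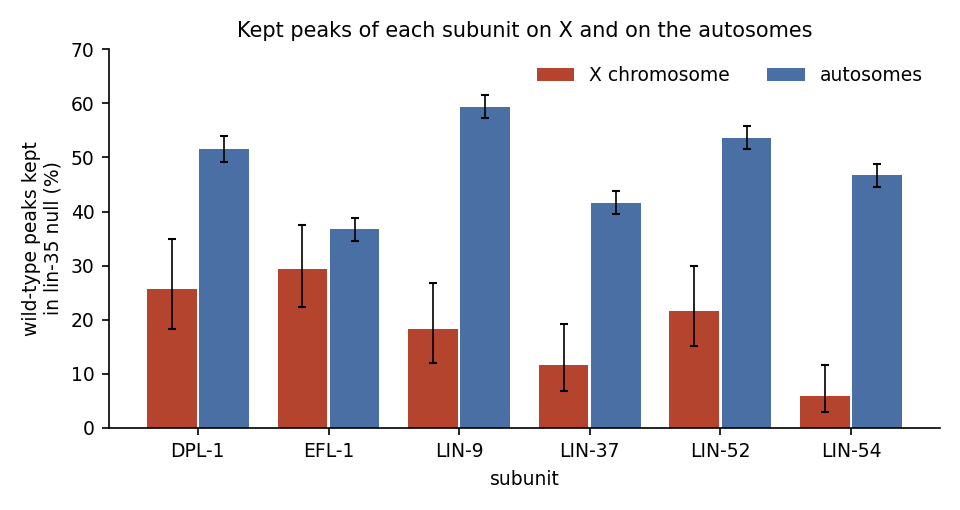
Bars give, for each subunit, the percentage of its wild-type peaks with an overlapping peak in its own lin-35 null list, on X and on the autosomes, with 95% Wilson intervals. Without matching for rank, X was below the autosomes for DPL-1 (25.7% against 51.6%) and for the MuvB subunits, and the intervals overlap for EFL-1 (29.3% against 36.7%).

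The same count for the other subunits, not matched for rank, gave lower shares on X for the MuvB subunits. These were 18.3% on X and 59.4% on the autosomes for LIN-9, 11.7% on X and 41.6% on the autosomes for LIN-37, 21.6% on X and 53.6% on the autosomes for LIN-52, and 5.83% on X and 46.7% on the autosomes for LIN-54. For EFL-1, the partner of DPL-1, the shares were 29.3% on X (39 of 133) and 36.7% on the autosomes (729 of 1986), with overlapping intervals.

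Over all chromosomes, the kept share of DPL-1 peaks (50.1%) lay among those of the other subunits, which were 36.2% for EFL-1, 40.1% for LIN-37, 44.5% for LIN-54, 52.01% for LIN-52 and 57.3% for LIN-9. The lin-35 null lists were not of 1 length. When each was shortened to its 783 highest peaks, the number in the EFL-1 list, the DPL-1 share was 41.1% and the others lay between 32.7% for LIN-54 and 36.2% for EFL-1. The wild-type DPL-1 list was also the shortest of the wild-type lists. New peaks made up 8.14% of the lin-35 null list for DPL-1, 2.94% for EFL-1 and 21.9% for LIN-9.

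Kept and lost DPL-1 peaks differed most in EFL-1. At kept peaks, 696 of 887 (78.5%) had a lin-35 null EFL-1 peak, against 9 of 884 lost peaks (1.02%). Of the 1561 wild-type DPL-1 peaks with a wild-type EFL-1 peak, both proteins were kept at 689 and both were lost at 688. DPL-1 was kept and EFL-1 lost at 174, and the reverse was seen at 10. In lin-35 null, 754 of 783 EFL-1 peaks (96.3%) had a DPL-1 peak, and 765 of 995 DPL-1 peaks (76.9%) had an EFL-1 peak. The kept DPL-1 peaks without EFL-1 in lin-35 null were low in that list, with a median percentile of 16.8 (191 peaks) against 65.0 for those with EFL-1 (696 peaks). The highest lost DPL-1 peak that had an EFL-1 peak in lin-35 null was at the promoter of Y62F5A.12 (83.7 in wild type), chosen after its values were seen.

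MuvB subunits were found at kept DPL-1 peaks and at part of the lost ones. At least 3 of the 4 mapped MuvB subunits were found in lin-35 null at 779 kept peaks (87.8%), against 188 lost peaks (21.3%). No MuvB subunit was found at 38 kept peaks (4.28%), against 553 lost peaks (62.6%). Neither EFL-1 nor any MuvB subunit was left at 549 of the 884 lost peaks (62.1%). At 184 lost peaks (20.8%), at least 3 MuvB subunits were present in lin-35 null with neither DPL-1 nor EFL-1. Lost peaks with and without MuvB had nearly the same wild-type DPL-1 rank, with median percentiles of 30.6 (188 peaks with at least 3 MuvB subunits) and 30.5 (553 peaks with none). Where a MuvB subunit had a wild-type peak, its median was lower at the lost peaks with at least 3 MuvB subunits than at those with none. The medians were 42.3 (168 peaks) and 50.7 (443) for LIN-9, and 47.2 (145) and 52.01 (407) for LIN-37. They were 48.99 (169) and 53.7 (434) for LIN-52, and 47.4 (164) and 55.6 (447) for LIN-54. Lost peaks without a wild-type peak of the subunit have no rank and are left out of these medians, in both groups.

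**Figure D4:**
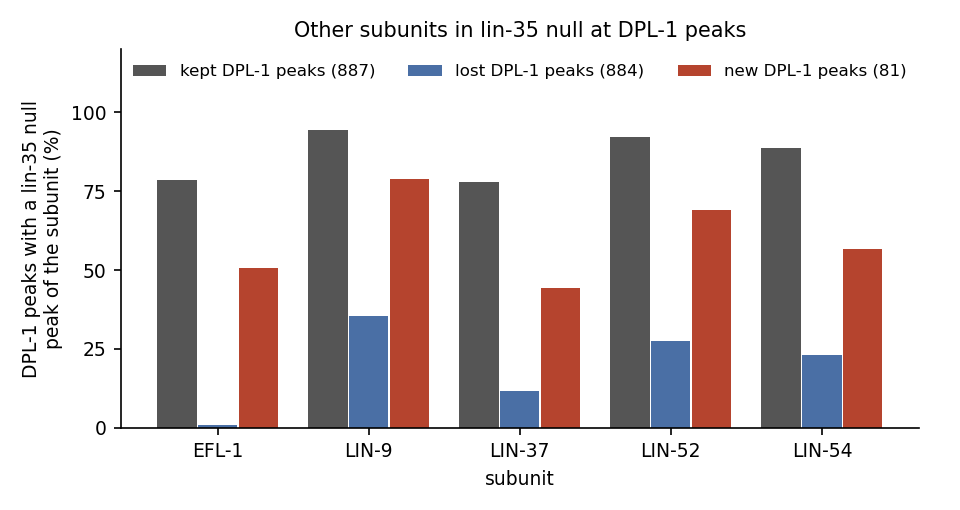
Bars give the percentage of kept, lost and new DPL-1 peaks that overlap a lin-35 null peak of each other subunit. EFL-1 was at 78.5% of kept and 1.02% of lost DPL-1 peaks, and LIN-9 at 94.5% of kept, 35.4% of lost and 79.0% of new peaks.

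The new DPL-1 peaks were mostly low in the lin-35 null list. Their median percentile was 21.1 (quartiles 10.1 and 35.4), and 10 of 81 stood at or above 50. By the way they were defined, none overlapped a DRM site, and 38 lay more than 10 kb from the nearest wild-type DPL-1 peak, middle to middle. Most were places that other subunits already occupied in wild type, since 64 of 81 (79.0%) had a wild-type peak of at least 1 other subunit. LIN-35 was the least frequent, at 14 of 81 (17.3%), against 97.9% of kept and 95.9% of lost peaks. In lin-35 null, LIN-9 was found at 64 of the new peaks and EFL-1 at 41.

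The peak at chrII:3499302-3499851 stood at percentile 78.7 and had wild-type peaks of EFL-1, LIN-37, LIN-52 and LIN-54. That at chrI:3608118-3608667 stood at 75.1 and had wild-type peaks of EFL-1 and LIN-52. The first 10 all had lin-35 null peaks of EFL-1 and the 4 MuvB subunits. Of these, chrIII:11107122-11107671 (58.4) and chrIII:7103976-7104525 (50.2) had no wild-type peak of any mapped subunit. These were the only new peaks with all 5 subunits in lin-35 null and none in wild type. Lying outside the annotated sites, new peaks were given no gene.

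By place in the genome, DPL-1 was kept most often at promoters. By their definition all 1418 DRM sites held a wild-type DPL-1 peak, 1427 peaks in all. At bidirectional promoters, which lie between divergent genes, 290 of 424 peaks were kept (68.4%), and at single promoters 408 of 693 (58.9%). Of the other sites, termination sites kept 26 of 49 peaks (53.1%), intergenic sites 40 of 113 (35.4%) and introns 45 of 148 (30.4%). The 344 DPL-1 peaks outside the DRM sites kept 78 (22.7%), and their median wild-type percentile was 18.1. Part of this order followed rank. At the kept shares of single promoters by rank group, bidirectional promoters would keep 60.6%, against 68.4% found. At those of all promoters, introns would keep 39.3%, against 30.4% found.

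HOT regions kept DPL-1 more often. At DRM sites in HOT regions 323 of 428 peaks were kept (75.5%, interval 71.2% to 79.3%), against 486 of 999 at other DRM sites (48.6%, interval 45.6% to 51.7%). The HOT share was higher in every rank group of the wild-type list, most in the second, with 54 of 90 peaks (60.0%) against 67 of 249 (26.9%). At the shares of the other DRM sites by rank group, HOT sites would keep 59.1%.

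At target genes, 972 of the 1515 genes with a wild-type DPL-1 peak at their promoter kept one, or 64.2%. Among genes of the DRM subunits themselves, 5 of 6 kept theirs. The exception was dpl-1, whose own promoter peak (chrII:9169387-9169776) stood at percentile 87.1 in wild type and was lost. EFL-1 stood at 92.4 there in wild type and was also lost, and LIN-9 alone had a lin-35 null peak, at 23.3 against 82.4 in wild type. The peak at efl-1 stood at 93.7 in lin-35 null and 99.1 in wild type, and that shared by lin-35 and vps-51 at 72.7 in lin-35 null and 81.5 in wild type. The lin-53 peak stood at 76.0 in lin-35 null and 89.2 in wild type, and the lin-54 peak at 76.2 in lin-35 null and 84.2 in wild type. The promoter peak of lin-9 was lower, at 41.5 in lin-35 null and 81.9 in wild type.

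Genes of cell division and DNA replication kept DPL-1 at shares above that of all promoter genes. Genes that share a promoter count the same peak, also across lists, as with cyb-1 and the replication gene ZC168.3 (now orc-5). The lists are therefore not separate sets of peaks. Cell cycle regulators kept it at 8 of 9 genes (88.9%), with the mitotic inhibitor kinase gene wee-1.3 at 95.1 in lin-35 null and 96.4 in wild type, the cyclin E gene cye-1 at 71.3 in lin-35 null and 92.3 in wild type, and the cyclin B gene cyb-1 at 87.5 in lin-35 null and 91.5 in wild type. Only cdc-14 lost its peak, which was low in wild type (13.7). The interval of the cell cycle share, 56.5% to 98.0%, holds the 64.2% of all promoter genes. DNA replication genes kept it at 27 of 32 (84.4%), with the licensing factor gene cdt-1 at 78.6 in lin-35 null and 94.3 in wild type, the sliding clamp gene pcn-1 at 98.7 in lin-35 null and 94.1 in wild type, and mcm-7 at 74.97 in lin-35 null and 93.7 in wild type. Lost were cdt-2 (68.9 in wild type), R53.6 (now psf-1, 55.7), dut-1 (49.0), rnr-2 and cdc-6. The spindle and kinetochore genes kept it at 40 of 48 (83.3%). Among them, knl-3 stood at 81.1 in lin-35 null and 95.2 in wild type, and knl-2 at 92.1 in lin-35 null and 94.8 in wild type, both genes of kinetochore assembly. The checkpoint gene mdf-1 was at 54.7 in lin-35 null and 94.9 in wild type. The centromere genes hcp-3, the worm CENP-A (81.3 in wild type), and hcp-4, the worm CENP-C (77.1), lost their peaks, as did the spindle positioning gene lin-5 (73.8).

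**Figure D5:**
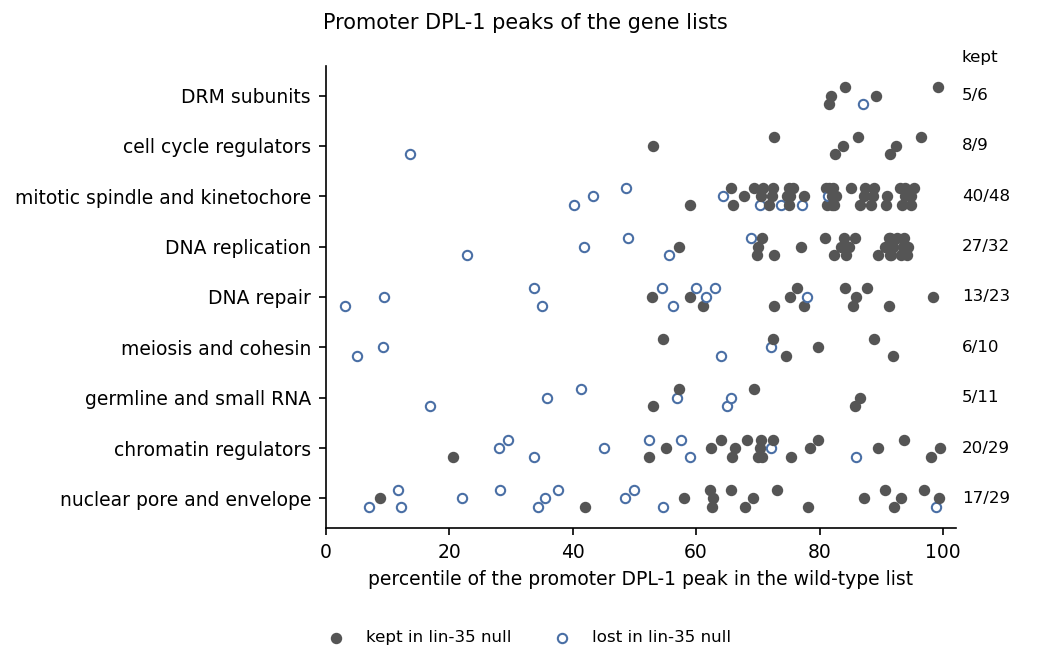
Each point is a gene of a list with a wild-type DPL-1 peak at its promoter, placed by the percentile of that peak in the wild-type list, filled where the peak was kept in lin-35 null and open where it was lost. The numbers at the right are kept genes over genes with a peak. Spindle (40 of 48) and replication genes (27 of 32) lie mostly high and filled, and among DNA repair genes (13 of 23) the lost ones reach the 78.0 percentile (exo-1).

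These shares followed rank in good part. At the kept shares of all promoter genes by rank group, the spindle list would keep 78.5% against 83.3% found, the replication list 78.3% against 84.4% found, and the cell cycle list 75.7% against 88.9% found. DNA repair genes lay on the other side, with 13 of 23 kept (56.5%, interval 36.8% to 74.4%) against 68.9% at those shares. The translesion polymerase gene polh-1 (70.6 in lin-35 null, 98.4 in wild type), brc-1, the worm BRCA1 (66.5 in lin-35 null, 91.2 in wild type), and the Fanconi gene fcd-2 (89.0 in lin-35 null, 87.7 in wild type) kept DPL-1. The nuclease gene exo-1 (78.0 in wild type), smc-6 (63.1) and the recombinase gene rad-51 (61.5) lost it, and exo-1 and rad-51 had no lin-35 null peak of any mapped subunit. Germline and small RNA genes were also below, with 45.5% found against 60.2% at those shares. So were meiosis and cohesin genes (60.0% against 62.4%) and the DRM subunit genes (83.3% against 89.0%). Chromatin regulators (69.0% against 65.9%) and nuclear pore and envelope genes (58.6% against 58.1%) were slightly above. For every list, the Wilson interval of the kept share holds the value at those shares.

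The remaining lists lay closer to the share of all promoter genes or below it. Chromatin regulators kept DPL-1 at 20 of 29 genes (69.0%), with set-21 at 99.0 in lin-35 null and 99.5 in wild type, while lin-36, a synthetic multivulva gene, stood at 27.4 in lin-35 null, against 93.7 in wild type. Lost in that list were set-17 (85.9 in wild type), psa-4 (now swsn-4, 72.0) and spr-2 (58.9). Meiosis and cohesin genes kept it at 6 of 10, with the cohesin subunit gene scc-1 at 88.5 in lin-35 null and 91.9 in wild type, coh-3 at 95.9 in lin-35 null and 88.8 in wild type, and wapl-1 at 68.1 in lin-35 null and 79.7 in wild type. The lost ones included spo-11, which encodes the meiotic break nuclease (72.0 in wild type, in the promoter it shares with psa-4), syp-3, a synaptonemal complex gene (64.0), and scc-3 (9.26).

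Nuclear pore and envelope genes kept it at 17 of 29 (58.6%), with the importin gene imb-3 at 98.9 in lin-35 null and 99.4 in wild type, npp-19 at 98.2 in lin-35 null and 96.9 in wild type, and npp-3 at 77.2 in lin-35 null and 93.1 in wild type. After lem-3, the highest lost ones were npp-15 (54.7 in wild type) and npp-18 (50.0). Germline and small RNA genes kept it at 5 of 11 (45.5%), with the RNA helicase gene cgh-1 at 92.8 in lin-35 null and 86.6 in wild type, spn-4 at 8.34 in lin-35 null and 85.7 in wild type, and mut-15 at 63.2 in lin-35 null and 69.5 in wild type. Lost were xnd-1 (65.7 in wild type), rde-4 (65.0) and mut-2 (56.9) among others. None of these 3 had a lin-35 null peak of any mapped subunit.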

How the data were processed

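DPL-1 was mapped by ChIP-seq in late embryos. Reads were mapped by the authors with Bowtie 1.1.2 (build ce10), who then called peaks with SPP against input, applied an irreproducible discovery rate threshold of 1% over the replicates of a genotype, and deposited narrowPeak lists, whose signal column is a score with no shared scale. The lists show no depth. Reads could report more than a single alignment. Genome tracks scaled with deepTools 2.0 were not used here.

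Scores were turned into percentiles within a list, and peaks were matched by overlap of at least 1 bp (Python 3.11.15, numpy 2.4.6, scipy 1.17.1). Genes, locations and HOT marks of DRM sites were the study's annotation (positions and names only). Of its 1761 gene names, 1733 had a current symbol by gene ID, and lists were matched by ID, since the study used 2 list names (gip-2, psf-1) for other IDs. The matching was tested on simulated peaks. Comparisons are counts and medians without tests.

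Named were the 10 peaks with the highest lin-35 null percentile among kept, the highest wild-type percentile among lost, the largest rise, the largest fall and the highest rank among new peaks, the DRM subunit genes, and 3 kept and 3 lost genes per list by wild-type percentile. Members and lists were chosen with earlier results of these data known. Alternatives changed the overlap, width, threshold and length of the lists. Motifs were not examined, as no ce10 sequence was used here.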

Additional observations from a re-analysis of the deposited data

How the results depend on the processing

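No paired analysis was possible because the lists pool the replicates, and for the same reason no replicate could be left out. Requiring an overlap of 50% of the shorter peak, summits within 200 bp or peaks of 200 bp left the kept share at 49.2% or more and the share on X at 25.7%, and gave 93, 119 and 121 new peaks. The length of the lists mattered most. Without the lowest 25% of the lin-35 null list, 39.6% of wild-type peaks were kept, 32 peaks were new, the median percentile difference was -16.8, and the kept share was 82.8% in the highest and 7.92% in the lowest rank group, 16.2% on X and 41.1% on the autosomes. Without the lowest 25% of both lists, the share on X was 17.8%. With the wild-type list shortened to 995 peaks, 70.4% were kept, 269 lin-35 null peaks were new, the shares were 92.4% in the highest and 48.0% in the lowest rank group and 72.2% on the autosomes, and the median percentile difference turned to 4.22. It also turned, to 2.14, with percentiles among paired peaks, so its sign rests on the peaks that surround the kept ones. With every lin-35 null list at 783 peaks, the DPL-1 share was 41.1%. Without HOT sites, promoters kept 53.95%. The alternatives that applied shares by rank group, or set X against the autosomes for the other subunits, were chosen after seeing the data. The named highest kept and lost peaks kept their call in all 120 recounts. The alternatives only tightened the matching or shortened a list, so a lost peak could not become kept. Cutting the lists could not change the call of the highest kept peaks either. Of the recounts of the named rises and falls that still had a pair, 86 stayed close, 25 moved and 0 changed sign. Recounts without a pair were not counted. None of the named falls stayed paired without the lowest 25% of the lin-35 null list, nor any of the named rises with the wild-type list shortened. The motif search was not run.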

Other observations

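The 344 DPL-1 peaks outside the DRM sites lack part of the other subunits in wild type by the definition of those sites, so their company is a description. LIN-35 had a wild-type peak at 289 of them (84.0%), while EFL-1 had one at 134 (39.0%), LIN-52 at 162 (47.1%), LIN-9 at 143 (41.6%), LIN-54 at 140 (40.7%) and LIN-37 at 97 (28.2%). Over all 1771 wild-type DPL-1 peaks, the kept share was 57.3% where all 6 other subunits had a wild-type peak (782 of 1365) and 16.7% where at most 3 had one (35 of 209). Their median wild-type percentiles also differed, at 61.3 and 18.0, and these shares were not matched for rank. Of the 7 peaks with no other subunit, 4 were kept. Peaks with a single other subunit were kept least, at 6 of 108 (5.56%), although their median wild-type percentile (18.0) was close to that of the peaks with 3 others (16.3), of which 16 of 50 (32%) were kept.

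The ranks of DPL-1 and of the other subunits were less alike in lin-35 null. Over shared peaks, the Spearman correlation of DPL-1 and EFL-1 percentiles was 0.848 in lin-35 null (765 peaks) and 0.914 in wild type (1561 peaks). For DPL-1 and LIN-9 it was 0.787 in lin-35 null (929 peaks) and 0.931 in wild type (1563 peaks), and for DPL-1 and LIN-37 it was 0.755 in lin-35 null (755 peaks) and 0.917 in wild type (1480 peaks). These are descriptions over peaks that share libraries, and the lin-35 null lists are shorter.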
